A study of Mus musculus with 12 samples.

Results

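The mRNA of 5 leukocyte integrin subunits, Itgb2, Itgam, Itgal, Itgb7 and Itga4, was followed in the glomeruli of diabetic and nondiabetic eNOS−/− mice treated with ATG (arctigenin) or vehicle. These are 5 of the 14096 genes listed in the deposited tables, taken by their symbols, and all 5 were listed in all 12 libraries. They were chosen from the measured values, with earlier results on diabetes and on ATG in diabetic mice known, so their levels and differences are given as a description without a test in every comparison, since each one shares libraries with those. In this bulk RNA, a change in the number of leukocytes, in integrin mRNA per leukocyte or in mRNA from other cells cannot be told apart.

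The libraries came from the kidney glomeruli of male C57BL/6J mice that lacked endothelial nitric oxide synthase in every group, controls included. Streptozotocin (50 mg/kg a day for 5 days, begun when the mice were 8 weeks old) made mice diabetic, and the nondiabetic mice were given buffer instead. Oral ATG at 40 mg/kg a day, or 5% DMSO as vehicle, began 10 weeks later and lasted 8 weeks, so that the glomeruli were taken at 18 weeks of diabetes. There were 4 groups of 3 libraries, namely vehicle-treated nondiabetic, ATG-treated nondiabetic, vehicle-treated diabetic and ATG-treated diabetic mice. The labels do not say that the libraries of a group came from separate mice, so the p-values measure only the spread between these libraries. The labels also describe a sort of dissociated glomerular cells by a fluorescent protein that the study's methods do not mention, and the glomeruli are treated here as whole.

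Integrins are cell surface receptors made of 1 α and 1 β subunit. Itgb2 encodes the β2 subunit, which pairs in leukocytes with αM, encoded by Itgam and abundant in myeloid cells, or with αL, encoded by Itgal and found in most leukocytes. Both pairs bind ICAM proteins on the endothelium, and αMβ2 also binds complement fragments and fibrinogen. Itga4 encodes α4, which pairs with β7, encoded by Itgb7, to bind MAdCAM-1 in the gut and with β1, encoded by Itgb1, to bind VCAM-1 and fibronectin. The α4β1 pair is not limited to leukocytes, since α4 is also made by some mesenchymal and muscle cells. In the kidney, β2 and α4 integrins are known for holding circulating leukocytes to glomerular and peritubular vessels. An integrin binds its ligand firmly after talin and kindlin attach to the β tail inside the cell.

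RefSeq promoter sequences of GRCm38.p6 were matched by gene identifier for 3 of the 5 members, Itgam, Itgb7 and Itga4. They are shown because the leukocyte factors PU.1 and RUNX are known regulators of integrin genes. Itgb2 and Itgal had no matched entry, and a link between these sequences and the levels below was not tested. Each line gives the 150 bases before the annotated start, from 5′ to 3′ on the gene's strand, at chr7:128062490-128062639 on the plus strand for Itgam, chr15:102231936-102232085 on the minus strand for Itgb7 and chr2:79255276-79255425 on the plus strand for Itga4. Capitals mark GAGGAA (the core of PU.1 sites), TGTGGT (RUNX) or GGGCGG (the GC box bound by Sp1) on either strand.
Itgam: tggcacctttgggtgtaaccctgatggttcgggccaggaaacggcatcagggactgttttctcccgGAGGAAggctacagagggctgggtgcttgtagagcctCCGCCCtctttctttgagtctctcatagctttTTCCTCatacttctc
Itgb7: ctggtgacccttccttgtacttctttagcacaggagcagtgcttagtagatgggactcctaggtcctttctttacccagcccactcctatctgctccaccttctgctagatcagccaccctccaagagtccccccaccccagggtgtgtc
Itga4: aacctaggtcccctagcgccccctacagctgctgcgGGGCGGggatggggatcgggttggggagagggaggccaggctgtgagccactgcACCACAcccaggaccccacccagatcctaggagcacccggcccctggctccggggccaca
The Itgam sequence held GAGGAA in both orientations, beginning 84 and 15 bases before the start, and GGGCGG on the opposite strand at 47. The Itga4 sequence held GGGCGG at 114 and TGTGGT on the opposite strand at 60 bases before the start. The Itgb7 sequence held none of these letters in this window. Over the 32817 promoters of the same length, 14.5% held GAGGAA, 8.4% TGTGGT and 28.6% GGGCGG on either strand, the motifs did not overlap in the sequences shown, and a match is a description of the letters only.

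The deposited unit is the log2 of normalised reads per gene, and 1 log2 unit is a doubling. Reads on the listed genes numbered 23.6 to 29.8 M (mega) per library. Itgb2 had 175 to 579 reads per library, Itgam 124 to 380, Itgal 135 to 508, Itgb7 124 to 335 and Itga4 676 to 2060. Averaged over the libraries, Itgb2, Itgam, Itgal and Itgb7 lay at percentiles 28.1, 21.1, 24.8 and 20.7 of the listed genes, and Itga4 at 63.9. Nos3, the gene disrupted in these mice, still had 846 to 2703 reads per library. These reads check no label, because the deleted part of Nos3 is not resolved in values per gene.

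Itgb2 lies on chromosome 10 at 77530348-77565674 (mm10, plus strand). In vehicle-treated nondiabetic glomeruli its log2 values were 8.43, 8.16 and 8.50, and in vehicle-treated diabetic glomeruli 9.38, 9.07 and 9.11. With ATG they were 8.74, 8.28 and 8.59 in the diabetic and 7.89, 7.68 and 8.04 in the nondiabetic mice. The lowest vehicle-treated diabetic library lay above each of the other 9, the ATG-treated nondiabetic libraries lay lowest, and the ATG-treated diabetic libraries overlapped those of vehicle-treated nondiabetic mice.

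Itgam, the αM subunit, lies on chromosome 7 at 128062640-128118491 (plus strand). Its log2 values were 7.71, 7.34 and 8.03 in vehicle-treated nondiabetic, 8.59, 8.48 and 8.45 in vehicle-treated diabetic, 8.68, 7.80 and 8.14 in ATG-treated diabetic and 7.30, 7.33 and 7.44 in ATG-treated nondiabetic libraries. The ATG-treated diabetic libraries were the most spread for this gene (SD 0.44, n = 3), and the first of them was the highest of the 12. In GENCODE M21, 68.7% of the exon bases of Itgam are shared with Gm49368, a gene on the same strand that is not among the listed genes, and how reads in the shared bases were assigned is not given in the sources used here.

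Itgal, the αL subunit, lies on the same chromosome at 127296260-127335137 (plus strand). It had log2 values of 8.19, 7.67 and 8.03 in vehicle-treated nondiabetic and 9.13, 8.80 and 8.99 in vehicle-treated diabetic glomeruli. With ATG, the values were 8.57, 8.24 and 8.53 in diabetic and 7.87, 7.31 and 7.45 in nondiabetic glomeruli. Every diabetic library, with or without ATG, lay above every nondiabetic library.

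Itgb7, the β7 subunit, lies on chromosome 15 at 102215995-102231935 (minus strand). Its log2 values were 7.87, 7.68 and 7.85 in vehicle-treated nondiabetic and 8.26, 8.35 and 8.39 in vehicle-treated diabetic libraries. ATG-treated diabetic libraries had 7.96, 8.03 and 8.21, and ATG-treated nondiabetic libraries 7.30, 7.20 and 7.90. The third ATG-treated nondiabetic library stood at the level of the vehicle-treated nondiabetic ones, and every diabetic library again lay above every nondiabetic one.

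Itga4, the α4 subunit, lies on chromosome 2 at 79255426-79333114 (plus strand). It was at 10.79, 10.53 and 10.61 in vehicle-treated nondiabetic, 10.84, 10.39 and 11.01 in vehicle-treated diabetic and 10.50, 10.75 and 10.81 in ATG-treated diabetic libraries. The ATG-treated nondiabetic libraries had 9.75, 9.76 and 9.88. For this gene 3 groups overlapped one another and 1 group, nondiabetic with ATG, lay below them. Of its exon bases, 8.04% are shared with Cerkl on the opposite strand, which is not among the listed genes.

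**Figure D1:**
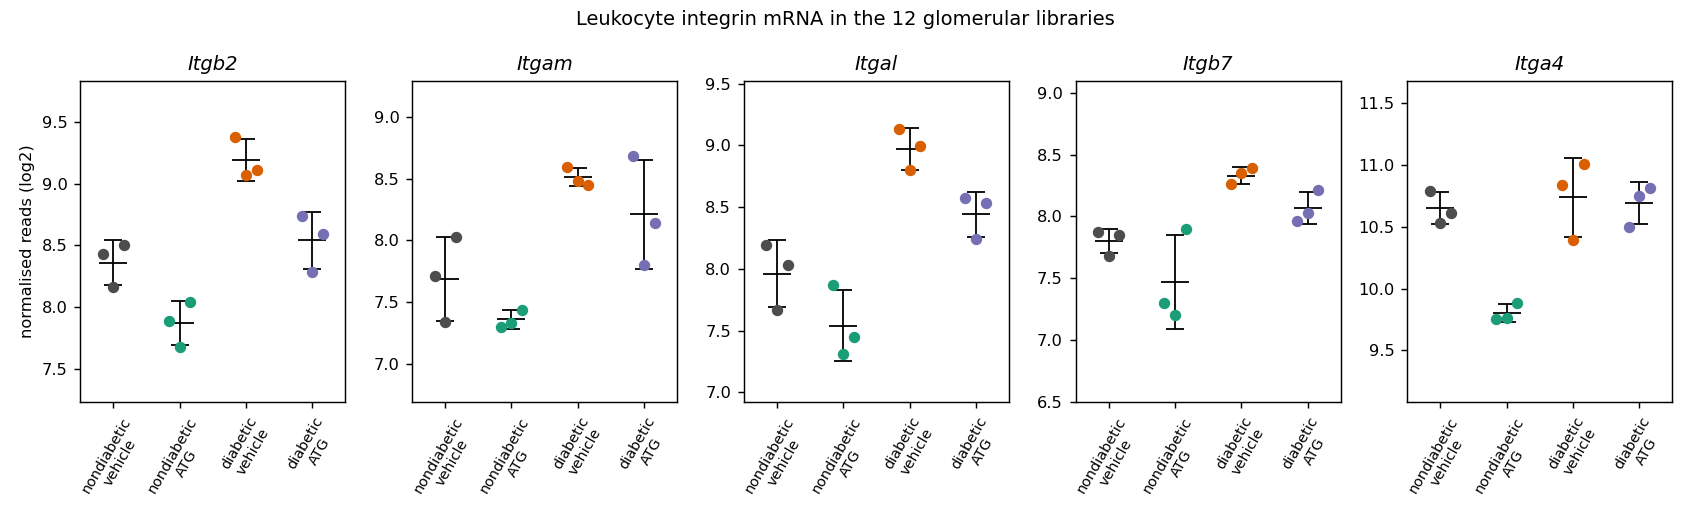
Log2 normalised reads (y axis) of Itgb2, Itgam, Itgal, Itgb7 and Itga4 in the 12 libraries, by group; points are libraries, and the black marks are the mean ± SD (n = 3). Each panel spans the same number of log2 units, and in that of Itga4 the ATG-treated nondiabetic libraries, at 9.75 to 9.88, lie below all others.

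Levels can be compared between subunits only per length of transcript, here the length given in the deposited tables (2862 bases for Itgb2, 4679 for Itgam, 5222 for Itgal, 2674 for Itgb7 and 9832 for Itga4). On this scale of normalised reads per kb, vehicle-treated nondiabetic glomeruli had 163 ± 15.0 of Itga4, 116 ± 13.9 of Itgb2, 83.7 ± 5.95 of Itgb7, 48.3 ± 8.59 of Itgal and 45.1 ± 10.6 of Itgam (mean ± SD, n = 3). The libraries of Itga4, Itgb2, Itgb7 and the lower pair did not overlap there, while those of Itgal and Itgam did. In vehicle-treated diabetic glomeruli, Itgb2 had 205 ± 24.6, Itga4 177 ± 37.4, Itgb7 121 ± 5.54, Itgal 96.7 ± 11.1 and Itgam 78.0 ± 3.95. The order of Itgb2 and Itga4 differed between libraries of this group, whose ranges were 188 to 233 and 136 to 210, and the other neighbours did not overlap. ATG-treated diabetic glomeruli had 169 ± 18.7 of Itga4, 131 ± 20.6 of Itgb2, 100 ± 8.97 of Itgb7, 67.1 ± 8.14 of Itgal and 65.2 ± 20.4 of Itgam. Neighbouring subunits overlapped in this group except Itgb7 and Itgal, whose lowest and highest libraries were 93.2 and 72.5. ATG-treated nondiabetic glomeruli had 90.4 ± 4.50 of Itga4, 82.2 ± 10.0 of Itgb2, 67.8 ± 18.9 of Itgb7, 36.2 ± 7.62 of Itgal and 35.0 ± 1.86 of Itgam. In this group, the libraries of Itga4, Itgb2 and Itgb7 overlapped, as did those of Itgal and Itgam.

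**Figure D2:**
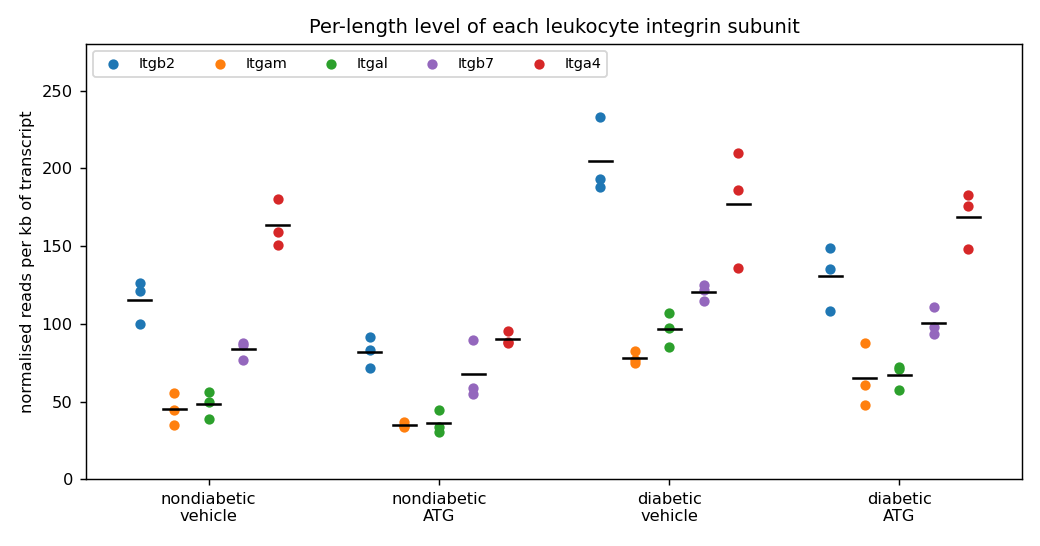
Normalised reads per kb of transcript (y axis) of the 5 subunits by group; points are libraries and black bars their means. Itgb7 lies between the pair Itga4 and Itgb2 and the pair Itgal and Itgam in every library, and Itgal and Itgam lie side by side at 30.3 to 107.

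Within each library, the α subunits were set against their β partner. The per-length ratio of Itgam to Itgb2 was 0.348 to 0.442 in vehicle-treated nondiabetic and 0.354 to 0.407 in vehicle-treated diabetic libraries. In ATG-treated diabetic libraries it was 0.440 to 0.588, above each vehicle-treated diabetic library, with a mean of the log2 ratio higher by 0.35. In ATG-treated nondiabetic libraries it was 0.405 to 0.479, which overlapped the vehicle-treated nondiabetic ones (difference of the mean log2 ratio 0.15). The ratio of Itgal to Itgb2 was 0.391 to 0.464, 0.365 to 0.539, 0.453 to 0.505 and 0.487 to 0.532 in the vehicle- and ATG-treated nondiabetic and the vehicle- and ATG-treated diabetic libraries, and overlapped in each comparison.

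Itga4 exceeded Itgb7 in every library, with a per-length ratio of 1.84 to 2.05 in vehicle-treated nondiabetic, 1.12 to 1.67 in vehicle-treated diabetic, 1.58 to 1.80 in ATG-treated diabetic and 1.07 to 1.61 in ATG-treated nondiabetic libraries. The vehicle-treated nondiabetic libraries lay above those of each other group. Against Itgb1, the β1 subunit carried by nearly every adherent cell, the per-length ratio of Itga4 was 0.0100 to 0.0190 over the 12 libraries. It overlapped in each comparison.

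The first comparison asks how diabetes changed these subunits in vehicle-treated mice. Itgal was higher by 1.01 ± 0.18 log2 units (difference ± SE), Itgb2 by 0.82 ± 0.15, Itgam by 0.82 ± 0.21 and Itgb7 by 0.53 ± 0.16 in diabetic glomeruli, while Itga4 differed by 0.10 ± 0.14. On the linear scale these are 2.01-, 1.77-, 1.76-, 1.44- and 1.07-fold. For 4 of the 5 members the 3 diabetic libraries lay above the 3 nondiabetic ones. Of all listed genes, 23.0% had every diabetic library higher and 18.7% every one lower. Since the members were chosen with this comparison in view, nothing is read from this count. The members' median difference was 0.82, against 0.008 over all listed genes. Tubule markers had a median of −1.50 in this comparison, and with their mean as a covariate the differences were 0.82 for Itgal, 0.62 for Itgb2, 0.60 for Itgam, 0.20 for Itgb7 and −0.29 for Itga4.

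Diabetes was also measured between ATG-treated mice. These libraries do not enter the comparison above, but the ATG-treated diabetic ones enter the ATG comparison with which the members were chosen, so the values are again a description. All 5 members were higher in the diabetic libraries, without overlap, where 30.5% of all listed genes had every diabetic library higher and 25.6% every one lower. Itgal was higher by 0.90 ± 0.18, Itga4 by 0.89 ± 0.14, Itgam by 0.85 ± 0.21, Itgb2 by 0.66 ± 0.15 and Itgb7 by 0.60 ± 0.16 log2 units. The members' median was 0.85, against 0.053 over all genes. Tubule markers, all 17 of which were listed, had a median of −1.79 in the same comparison. With their mean as a covariate the differences were 0.67 for Itgal, 0.57 for Itgam, 0.41 for Itga4, 0.40 for Itgb2 and 0.18 for Itgb7.

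The next question is what ATG did in diabetic mice. Itgb2 was lower with ATG by 0.65 ± 0.15 log2 units, to 0.637 times the vehicle level, Itgal by 0.53 ± 0.18 and Itgb7 by 0.27 ± 0.16, and for these 3 genes every ATG-treated library lay below every vehicle-treated one. The difference was −0.30 ± 0.21 for Itgam and −0.05 ± 0.14 for Itga4, with overlapping libraries. Without the first ATG-treated diabetic library, the highest for Itgam, the difference of Itgam was −0.54, and without the second, the lowest, it was −0.10. Of all genes, 6.32% had every ATG-treated library lower and 3.85% every one higher. No gene passed an adjusted p of 0.05 in either direction (0% and 0%), and no gene was called by limma-voom on the recovered reads. In limma, 636 of 14096 genes had an unadjusted p under 0.05, a smaller share than the 0.05 due if no gene differed. The members' median was −0.30, against −0.005 over all genes.

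In nondiabetic mice, where ATG was given without diabetes, the 5 members were also lower in the mean. The vehicle-treated libraries here are those of the first comparison. Itga4 differed by −0.85 ± 0.14 log2 units with ATG, which is 0.555 times the vehicle level, Itgb2 by −0.49 ± 0.15, Itgal by −0.42 ± 0.18, Itgb7 by −0.34 ± 0.16 and Itgam by −0.34 ± 0.21. For Itga4 and Itgb2 every ATG-treated library lay below every vehicle-treated one, as for 20.0% of all genes, while 14.4% had every one higher. The members' median was −0.42, against −0.039 over all genes. The value of Itga4 was −0.91 to −0.78 with 1 library left out and −0.66 with the tubule covariate. That of Itgb7 was −0.55 without the third ATG-treated nondiabetic library, −0.20 without the second and −0.17 with the tubule covariate, and that of Itgam was −0.17 without the third and −0.51 without the second vehicle-treated nondiabetic library.

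**Figure D3:**
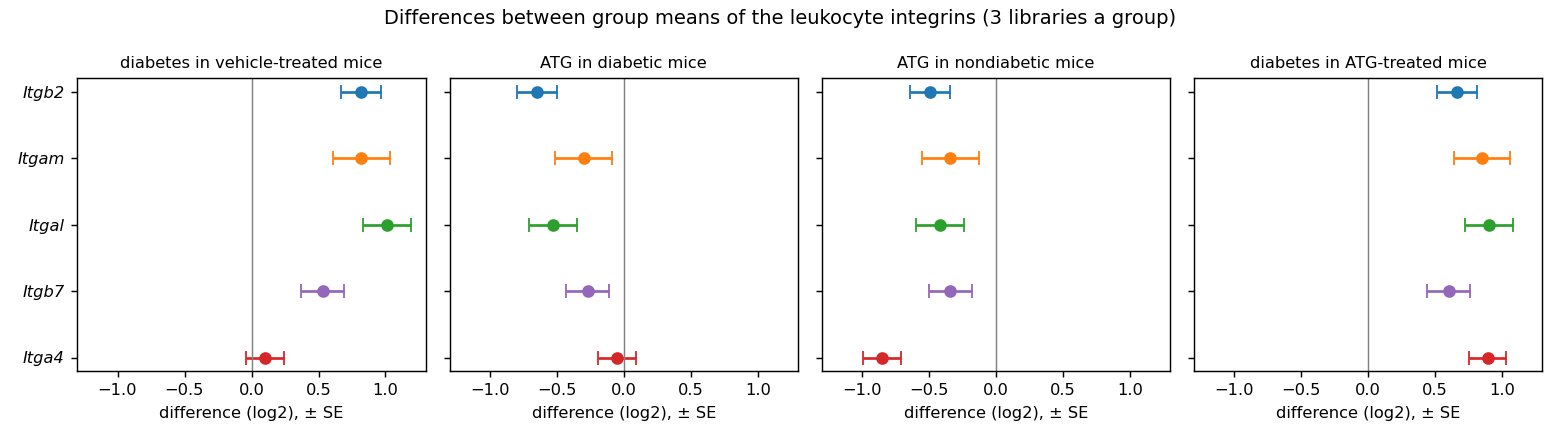
Differences of group means (x axis, log2 units, ± SE from limma, 3 libraries a group) of the 5 subunits in 4 comparisons. Itga4 lies near 0 for diabetes in vehicle-treated mice and for ATG in diabetic mice, and at −0.85 and 0.89 in the comparisons that hold the ATG-treated nondiabetic libraries.

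The ATG difference in diabetic mice minus that in nondiabetic mice was −0.16 ± 0.21 for Itgb2, −0.11 ± 0.25 for Itgal, 0.04 ± 0.30 for Itgam and 0.07 ± 0.23 for Itgb7, each within its standard error. For Itga4 it was 0.80 ± 0.20. Of all genes, 0.539% passed the threshold upward and 0.00709% downward for this difference.

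Marker genes of leukocytes were measured in the same libraries. Of 10 pan-leukocyte markers 9 were listed, Evi2a being the exception, and the mean of their log2 values was 8.00 to 8.22 in vehicle-treated nondiabetic, 7.54 to 7.86 in ATG-treated nondiabetic, 8.56 to 8.84 in vehicle-treated diabetic and 8.17 to 8.44 in ATG-treated diabetic libraries. Their summed level was 11.75 to 12.02, 11.37 to 11.67, 12.40 to 12.60 and 12.11 to 12.30 on the log2 scale in the same order. With diabetes in vehicle-treated mice, where 10.2% of all genes rose, 4 of the 9 did (Arhgdib, Cd53, Cd37 and Ptprc), and their median difference was 0.59, below those of Itgal, Itgb2 and Itgam and near that of Itgb7. The median was −0.36 for ATG in diabetic mice, with none past the threshold. For ATG in nondiabetic mice it was −0.39, with Cd48 and Arhgdib lower, as 4.51% of all genes were, and for diabetes in ATG-treated mice 0.58, with 6 of 9 higher, as 25.9% of all genes were. Of 13 macrophage markers 12 were listed, Cd163 being the exception, with a mean log2 value of 9.02 to 9.57, 8.55 to 8.84, 9.26 to 9.79 and 8.82 to 9.69 in the same order. Their summed level, 14.55 to 14.78, 13.80 to 14.65, 14.66 to 15.07 and 14.82 to 15.02, is mostly that of Mertk, a receptor for the uptake of dying cells, whose group means were 14.20, 13.69, 14.24 and 14.53 and which differed by 0.29 with ATG in diabetic mice (limma, adjusted p = 1). Lyz2, a lysozyme of myeloid cells, rose by 1.39 with diabetes (limma, adjusted p = 0.0128) and was the only one of the 12 past the threshold there, a share near that of all genes, beside a median of 0.21. The macrophage median was −0.50 for ATG in diabetic and −0.49 for ATG in nondiabetic mice, with none past the threshold, and 0.43 for diabetes in ATG-treated mice, with 6 of 12 higher.

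Markers of other leukocytes were sparse. Only 2 of 13 T and NK cell markers (Lck and Nkg7) and 4 of 10 neutrophil markers (S100a8, S100a9, Ltf and Csf3r) were listed, and Cd3e, Cd4, Cd8a and Ly6g were among those that were not. Nkg7, a granule protein of cytotoxic lymphocytes, fell by 1.20 with diabetes in vehicle-treated mice (limma, adjusted p = 0.0142). Lck went the other way, by 0.59 (limma, adjusted p = 0.0751), with every diabetic library above every nondiabetic one. None of the 4 neutrophil markers passed the threshold there, and their summed level was 8.58 to 8.94 in nondiabetic and 8.50 to 9.38 in diabetic vehicle-treated libraries.

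Relative to Ptprc, the CD45 gene that is shared by nearly all leukocytes, the members differed from one another. Itgb2 over Ptprc per length was 0.947 to 0.985 in vehicle-treated nondiabetic, 1.15 to 1.24 in vehicle-treated diabetic, 0.880 to 1.06 in ATG-treated diabetic and 0.833 to 0.903 in ATG-treated nondiabetic libraries. The vehicle-treated diabetic libraries lay above each other group. Itgal over Ptprc was 0.375 to 0.454 without and 0.520 to 0.628 with diabetes in vehicle-treated mice, and Itgam over Ptprc 0.342 to 0.418 and 0.426 to 0.484, in both cases without overlap. Itgb7 over Ptprc was 0.591 to 0.957 over the 12 libraries, and its log2 mean differed by 0.01 with diabetes and by 0.09 with ATG in diabetic mice. Itga4 over Ptprc was 1.19 to 1.49 in vehicle-treated nondiabetic and 0.877 to 1.02 in ATG-treated nondiabetic libraries, without overlap. Ptprc itself rose by 0.52 with diabetes in vehicle-treated mice. The other listed pan-leukocyte markers ran from −0.18 (Ptpn6) to 0.83 (Cd37) there, so these ratios depend on the marker chosen. The members were chosen with this comparison in view, and the share of all genes without overlap relative to Ptprc was not computed. Whether integrin mRNA per leukocyte differed was not tested.

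Markers of the cell types of the glomerulus and its surroundings were counted in the same way, beside 10.2% of all genes higher and 8.63% lower with diabetes in vehicle-treated mice, 25.9% and 20.8% with diabetes in ATG-treated mice and 4.51% lower with ATG in nondiabetic mice. Tubule markers had a median of −1.50 for diabetes in vehicle-treated mice, with 13 of 17 lower, of 0.37 for the ATG effect in diabetic mice and of 0.76 for that in nondiabetic mice, with none past the threshold in either. Their summed level was 18.68 to 18.95 in vehicle-treated nondiabetic, 19.20 to 19.77 in ATG-treated nondiabetic, 16.54 to 18.06 in vehicle-treated diabetic and 17.57 to 17.78 in ATG-treated diabetic libraries. With diabetes in vehicle-treated mice, 3 of 8 endothelial markers rose (Cdh5, Egfl7 and Emcn, median 0.40) and 1 of 7 mesangial and contractile markers (Serpine2, median −0.20), and none of 7 podocyte markers passed (median 0.18). With ATG in nondiabetic mice, 5 of 7 mesangial and contractile markers fell (median −0.86), among them Pdgfrb by 1.01 (limma, adjusted p = 0.00548), 4 of 8 endothelial markers fell (median −0.62), and the 7 podocyte markers had a median of −0.60 with none past the threshold. The summed level of the mesangial markers was 14.82 to 15.28 in vehicle-treated nondiabetic, 13.92 to 14.36 in ATG-treated nondiabetic, 15.08 to 15.20 in vehicle-treated diabetic and 15.13 to 15.24 in ATG-treated diabetic libraries, and that of the endothelial markers 16.96 to 17.06, 16.01 to 16.78, 17.31 to 17.44 and 17.41 to 17.54 in the same order. For both lists the ATG-treated nondiabetic libraries lay below all others, as for Itga4. The summed podocyte level was 17.80 to 19.11 in that group and 18.95 to 19.72 in the others. For diabetes in ATG-treated mice, where all 5 members were higher, 8 of 8 endothelial, 6 of 7 mesangial and 3 of 7 podocyte markers rose (medians 1.10, 0.74 and 0.76) and 16 of 17 tubule markers fell. The part of these cell types in the members' differences was not tested beyond the tubule covariate.

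**Figure D4:**
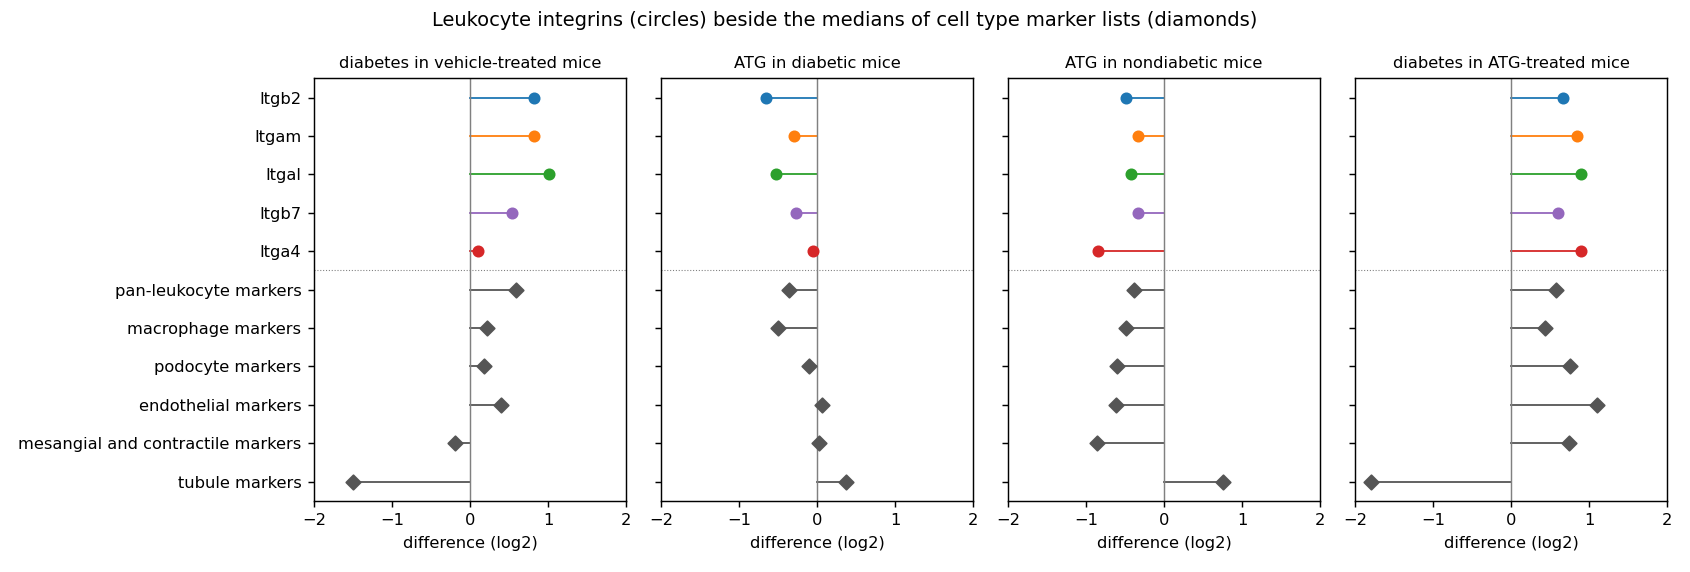
Log2 difference (x axis) of each of the 5 subunits (circles) and the median over each cell type marker list (diamonds) in 4 comparisons. For ATG in nondiabetic mice Itga4 lies at −0.85 and the mesangial and contractile, endothelial and podocyte markers at −0.86, −0.62 and −0.60, and tubule markers lie opposite to the members in each comparison.

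The genes whose log2 values were most like those of each member were found over all 12 libraries by Pearson's r, as a description, since the libraries share their groups. For Itgb2 they were Cd300a, an inhibitory receptor of myeloid cells (r = 0.988), Coro1a, a coronin of leukocyte actin (0.981), and Lcp1, the leukocyte plastin (0.98). For Itgam they were Ms4a6c (0.98), Lyz2 (0.979) and Alox5ap (0.975), the last needed for leukotriene synthesis. For Itgal they were Bin2 (0.993), Coro1a (0.982) and Serpinb10 (0.972). For Itgb7 they were Lrrc3b (0.981), Ssrp1 (0.975), a histone chaperone subunit, and Faim (0.973), and for Itga4 Fat4, an atypical cadherin (0.962), Stim1, a calcium sensor of the endoplasmic reticulum (0.959), and Pcp4l1 (0.957). Around the group means, where the differences between groups are removed, the closest were Lyz1 for Itgb2 (0.967), Ms4a6c for Itgam (0.953), Bin2 for Itgal (0.955), Ppard for Itgb7 (0.974) and Tug1 for Itga4 (0.968). Cd300a for Itgb2, Ms4a6c for Itgam and Bin2 for Itgal were thus among the closest 3 by both measures, and no gene was so for Itgb7 or Itga4.

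Genes that act with these integrins were held in 6 lists of 86 genes without the members, of which 69 were listed. With diabetes in vehicle-treated mice 22 rose and 2 fell (limma, adjusted over all listed genes), where 10.2% and 8.63% of all genes did, and their median was 0.31. In ATG-treated mice, 30 rose and 7 fell with diabetes, against 25.9% and 20.8% of all genes, with a median of 0.44. With ATG, none passed in diabetic mice (median −0.12), where 0% of all genes did, and 11 fell and none rose in nondiabetic mice (median −0.28), against 4.51% and 0.709% of all genes. Without the first vehicle-treated diabetic or the second vehicle-treated nondiabetic library, 6 passed with diabetes in vehicle-treated mice, and without the first vehicle-treated nondiabetic library 11. With the tubule covariate, none of the 22 rises with diabetes in vehicle-treated mice was left, and 1 gene fell. For ATG in nondiabetic mice 1 gene fell and none rose with this covariate, and for diabetes in ATG-treated mice none passed. The 11 that fell with ATG in nondiabetic mice became none when only these groups were fitted.

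Among the ligands and counter-receptors, 12 of 18 genes were listed and Madcam1, the partner of α4β7, was not. Icam1, the endothelial ligand of both β2 integrins, rose with diabetes by 0.75 in vehicle-treated (adjusted p = 0.0214) and by 0.87 in ATG-treated mice (adjusted p = 0.00392). Icam2, a ligand of αLβ2, rose by 0.64 and 1.25 (adjusted p = 0.0403 and 0.000776), and Jam3, a junction protein that αMβ2 can bind, by 0.46 and 0.99 (0.0195 and 0.000195). Vcam1, the ligand of α4β1, fell by 1.04 with ATG in nondiabetic mice (adjusted p = 0.0435), as did Jam3 by 0.59 (0.0165), and Vcam1 differed by −0.27 with diabetes in vehicle-treated mice (0.472). Fibronectin, Fn1, the matrix ligand of α4β1, rose by 0.53 with diabetes in ATG-treated mice (0.0397) and differed by 0.47 in vehicle-treated mice (0.0995). Cdh1, the E-cadherin that binds αEβ7 and is also a tubule epithelial protein, differed by −1.23 and −1.42 with diabetes in vehicle- and ATG-treated mice (0.0276 and 0.00568), and Fgg, a fibrinogen chain, fell by 1.25 in ATG-treated mice (0.0298).

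Of the 6 partner subunits, none passed the threshold with diabetes in vehicle-treated mice. Itgax, the αX partner of β2, differed by 0.31 (adjusted p = 0.242) and Itgb1 by 0.29 (adjusted p = 0.241). In ATG-treated mice, Itga9, an α subunit related to α4, rose with diabetes by 1.13 (0.000359) and Itgb1 by 0.76 (0.0044), while Itgae, the αE partner of β7, fell by 0.50 (0.0368). Itga9 fell by 0.66 with ATG in nondiabetic mice (0.032). As a comparator, the 16 integrin subunits that bind matrix or other ligands outside the leukocyte set had a median difference of 0.06 with diabetes in vehicle-treated mice, where Itga2b, Itga5 and Itga6 rose, by 0.61, 0.59 and 0.39 (adjusted p = 0.011, 0.0137 and 0.0254), and Itga1 fell by 0.38 (0.021). With ATG in nondiabetic mice, Itga8, Itga7 and Itga5 fell, by 1.09, 0.95 and 0.58 (0.00818, 0.0103 and 0.0338), and the median was −0.30. For diabetes in ATG-treated mice the median was 0.46, with 7 of 16 higher and Itga1 lower (−0.28), where 25.9% and 20.8% of all genes were. Those with the lowest p among the 7 were Itga5 (1.08), Itga8 (1.11), Itgb3 (1.06) and Itga6 (0.47).

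Of the 19 genes that promote or restrain integrin activation inside the cell, 5 rose and 1 fell with diabetes in vehicle-treated mice. Of all genes, 10.2% rose and 8.63% fell there. Fermt3, the kindlin of blood cells, rose by 0.94 (limma, adjusted p = 0.00669), Rap1a, a small GTPase upstream of talin, by 0.47 (0.00711), Sharpin, an integrin inhibitor, by 0.25 (0.0169) and Dok1, a competitor of talin at the β tail, by 0.36 (0.0172). Tln1, talin itself, differed by 0.19 (0.154), and Cytip, which restrains β2 adhesion through cytohesin, fell by 0.69 (0.0385). With ATG in nondiabetic mice, Flna, the filamin that binds β tails, fell by 0.99 (0.00524), Rasgrp2, the exchange factor of Rap1, by 0.75 (0.0152), Tln1 by 0.44 (0.0234) and Rasa3 by 0.52 (0.0251). In ATG-treated mice 11 rose and 2 fell with diabetes, where 25.9% and 20.8% of all genes did. The rises were led by Flna (1.12, limma, adjusted p = 0.000192), Rasgrp2 (1.10, 0.000284), Tln1 (0.61, 0.000611) and Sipa1 (0.98, 0.000812), and Fermt3 rose by 0.82 (0.00321). Cytip (−1.11, adjusted p = 0.00181) and Rassf5 (−0.79, adjusted p = 0.00772) fell.

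Of the 17 genes that signal after binding, 8 rose and none fell with diabetes in vehicle-treated mice, where 10.2% and 8.63% of all genes did. Lyn and Fgr, Src family kinases below β2, rose by 0.51 (limma, adjusted p = 0.00375) and 0.93 (0.0197), and Coro1a and Lcp1, both actin proteins of leukocytes, by 1.12 (0.00456) and 0.55 (0.0231). The list's median was 0.51 in that comparison and −0.49 for ATG in diabetic mice, where 15 of the 17 differences were negative and none passed the threshold. In ATG-treated mice 7 rose and 2 fell with diabetes, against 25.9% and 20.8% of all genes. The rises were led by Lyn (0.74, limma, adjusted p = 0.000143) and Pik3cd, a phosphoinositide kinase subunit of leukocytes (0.84, 0.000603), then Coro1a (0.86, 0.00326) and Pik3cg (0.54, 0.00792). Plcg2 (−0.32, adjusted p = 0.0404) and Vav3 (−0.44, adjusted p = 0.0416) fell. With ATG in nondiabetic mice, Pik3cd fell by 0.54 (0.036) and Lyn by 0.32 (0.0393).

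Of the 16 rolling and chemoattractant receptors, 7 were listed. With diabetes in vehicle-treated mice, where 10.2% of all genes rose, 3 of them did. Among these were Sele (E-selectin) by 1.39 and Selplg, which binds selectins, by 0.70 (limma, adjusted p = 0.0191 and 0.033). In ATG-treated mice, where 25.9% of all genes rose with diabetes, Sele rose by 1.25 (0.0117) and Ccr2, the monocyte chemokine receptor, by 0.79 (0.0163). Selplg differed by 0.46 (0.076). Of 10 transcription factors known to act on leukocyte integrin genes, 8 were listed. Irf8, Ikzf1 and Spi1, which encodes PU.1, rose with diabetes in vehicle-treated mice by 1.00, 1.05 and 0.80 (adjusted p = 0.00278, 0.00371 and 0.0385). In ATG-treated mice Ikzf1, Ets1, Irf8 and Cebpb rose, by 0.95, 0.95, 0.77 and 0.96 (adjusted p = 0.00106, 0.00147, 0.00162 and 0.0196), and Ets1 fell by 0.71 with ATG in nondiabetic mice (0.038).

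**Figure D5:**
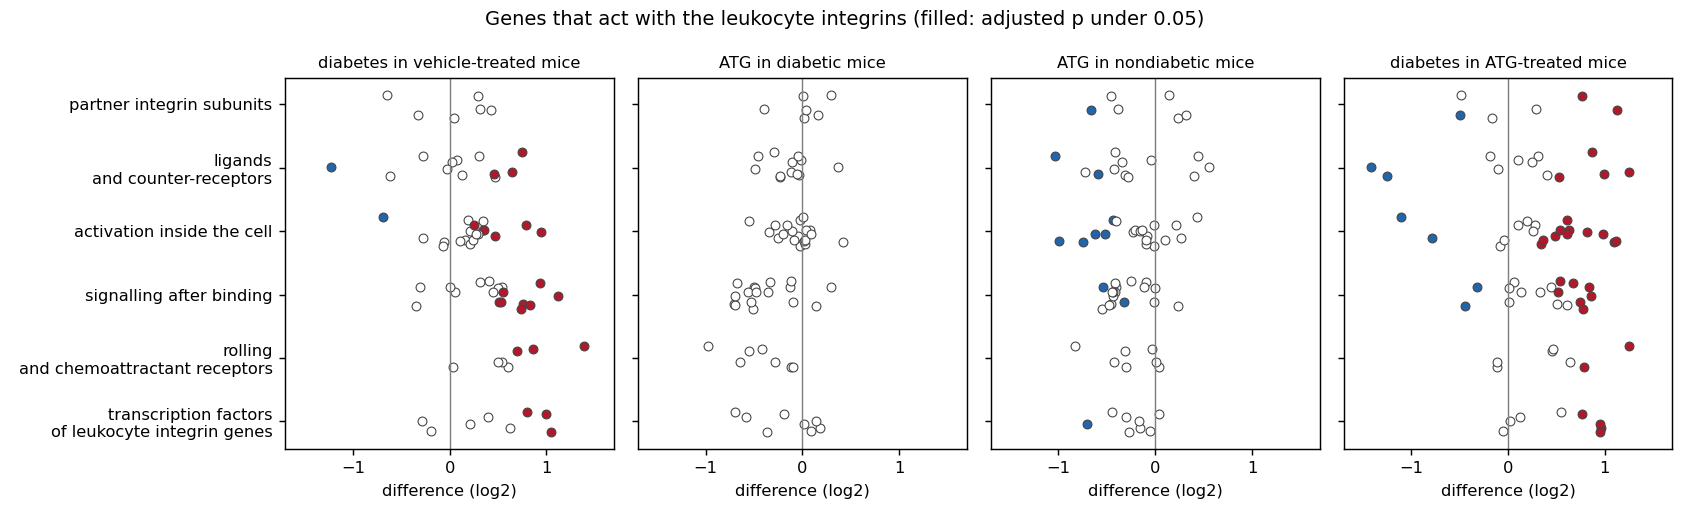
Log2 difference (x axis) of the 69 listed genes of the 6 lists, without the members, in 4 comparisons; each point is a gene, filled red or blue where it rose or fell at an adjusted p under 0.05 (limma), and vertical scatter within a list has no meaning. From left to right the panels hold 24, 0, 11 and 37 filled points.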

How the data were processed

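Poly(A)-selected mRNA from glomeruli was sequenced in 12 libraries. The authors deposited 1 table per library with a log2 value per gene, and the submitters' processing notes name limma and the build mm10; aligner and counting are not given in the sources used here. The deposited log2 values are reads per gene times 1 factor per library: 83.7% to 84.2% of values under 2000 reads were whole within 0.02 reads after division by that step, which gave the reads quoted. The highest linear value of a listed gene was never under 100, so genes weaker than this are absent. At a depth of 23.6 to 29.8 M reads, Poisson sampling alone gives an SD of 0.032 to 0.13 log2 units for a member in a library, beside within-group SDs of 0.067 to 0.44. Per-length levels divide by the deposited transcript length.

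All 12 libraries entered 1 limma fit of the 4 groups (limma 3.58.1, R 4.3.3, mean-variance trend, two-sided, Benjamini-Hochberg adjusted over 14096 genes, called at an adjusted p under 0.05), which was tested on simulated data. The groups come from the sample descriptions. No first part of a sample title is shared by groups, so no comparison could be made within one. Each nondiabetic group holds 1 unnumbered library whose first part differs from that of its other 2, and the fit without both is among the alternatives. The members and lists were chosen with earlier results of these data known. A test of the members planned for ATG in nondiabetic and for diabetes in ATG-treated mice is not given, because these comparisons share libraries with those the choice had in view. Named are the members, up to 4 genes per list, direction and comparison with the lowest p among those called, and always Itgb1, Itgax, Icam1, Vcam1, Madcam1, Tln1, Fermt3, Spi1 and Selplg. Also named are the 3 genes most like each member by each measure, of which the text gives the first of those around the group means, and marker genes singled out after their values were seen. Some genes that this rule would name are not reported here. Alternatives were a minimum of 10 reads, only the groups compared, a replicate block, each library or both unnumbered libraries left out, no trend, median-ratio scaling, limma-voom, a pseudocount of 1 and a tubule marker covariate. Plots were made in Python 3.11.15 (matplotlib 3.10.9).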

Additional observations from a re-analysis of the deposited data

Results flagged for a closer look

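In 4 genes beside the members, the ATG effect differed between diabetic and nondiabetic mice. By the test of the difference itself (ATG effect in diabetic minus that in nondiabetic mice, limma, adjusted over all listed genes), it was 1.16 ± 0.19 (SE) for Rasgrp2 (adjusted p = 0.0443), 1.01 ± 0.18 for Flna (adjusted p = 0.0455), 1.34 ± 0.22 for Itga8 (adjusted p = 0.0443) and 1.03 ± 0.19 for Pdgfrb (adjusted p = 0.0455), where 0.539% of all genes passed upward and 0.00709% downward. Rasgrp2 and Flna were the 2 of 69 pathway genes that passed. These calls were mostly lost under alternatives: of 20, Rasgrp2, Flna and Itga8 were each called in 7 and Pdgfrb in 6, and with 1 library left out, in 3, 3, 3 and 2 of 12 fits. For Pik3cd every ATG-treated library was above the vehicle-treated ones in diabetic mice (0.30, limma, adjusted p = 1) and below them in nondiabetic mice (−0.54, adjusted p = 0.036), and the difference between these effects, 0.84 ± 0.17, did not pass the test (adjusted p = 0.0618).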

How the results depend on the processing

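Of 420 differences of members recomputed under alternatives, 9 moved by more than 1 within-group SD, 28 by more than 1.5 times and 5 changed sign, all 5 of Itga4 where its difference was 0.10 or −0.05. With the tubule covariate, Itgb7 was 0.20 and Itgb2 0.62 for diabetes in vehicle-treated mice. Without the third ATG-treated nondiabetic library, Itgb7 was 0.82 for diabetes in ATG-treated mice.

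With the replicate block, the number after the hyphen in the titles, 13 pathway genes were called for diabetes in vehicle-treated mice instead of 24, and none of the 2 for the difference between the ATG effects. It moved no member by over 1 SD. Deviations of same-numbered diabetic libraries from their group means correlated at 0.315, 0.054 and 0.339. Over all same-numbered pairs the correlations ran from −0.59 to 0.339. Differently numbered pairs were not compared, so these values cannot show whether such libraries were paired. The main fit takes them as unpaired. With the tubule covariate the counts were 1 for diabetes in vehicle-treated mice and 1 for ATG in nondiabetic mice, both of a gene that fell. They were 0 for diabetes in ATG-treated mice instead of 37 and 0 for the difference between the ATG effects. The members' median was then 0.60 and 0.41 for diabetes in vehicle- and ATG-treated mice. The tubule mean differs between the groups, and the cause of these losses was not tested. For ATG in nondiabetic mice, 11 became 7 with median-ratio scaling, 0 with only the groups compared and 0 without both unnumbered libraries. For the difference between the ATG effects, 2 became 0 without both unnumbered libraries and 0 without a trend.

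With 1 library left out in turn, pathway genes called numbered 6 to 29 for diabetes in vehicle-treated mice, 1 to 17 for ATG in nondiabetic mice, 30 to 38 for diabetes in ATG-treated mice, 0 to 11 for the difference between the ATG effects and 0 throughout for ATG in diabetic mice. The count of 17 and that of 11 came without the third ATG-treated nondiabetic library. The members' median was 0.64 to 0.89, −0.57 to −0.32, 0.65 to 0.86 and, for ATG in diabetic mice, −0.54 to −0.25 (−0.54 without the first ATG-treated diabetic library). Itga4 changed sign within 1 SD for ATG in diabetic mice (−0.23 to 0.08), and for diabetes in vehicle-treated mice it was −0.29 with the tubule covariate. With 124 reads each in their lowest library, Itgam and Itgb7 have a sampling SD of 0.13 log2 units there and of at least 0.074 and 0.079 in any library, beside 0.072 and 0.067 as the SD of their tightest groups.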

Other observations

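Erythrocyte genes, of which 5 of 6 were listed, had a median difference of 1.65 for diabetes in vehicle-treated mice, where Hba-a1 rose by 1.65 and Hba-a2 by 1.60 (limma, adjusted p = 0.0296 and 0.0377), and Alas2, the first enzyme of heme synthesis in red cells, by 0.89 (adjusted p = 0.0427). Their summed log2 level was 7.89 to 7.96 in vehicle-treated nondiabetic, 8.09 to 10.22 in vehicle-treated diabetic, 8.02 to 8.94 in ATG-treated diabetic and 7.61 to 7.65 in ATG-treated nondiabetic libraries. Hba-a1 and Hba-a2 are near-identical copies whose reads can be split between them. The part of retained blood in the levels of the leukocyte integrins was not tested.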
